A study of Mus musculus with 15 samples.

Results

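The enzymes described here make the wax esters, cholesteryl esters and triacylglycerols of Meibomian and sebaceous gland lipid, together with the desaturases and the elongase that supply their fatty chains. They were taken by gene symbol, with 1 transcript kept per symbol (the transcript with the highest mean read count), and all 10 were found among the 20418 symbols of the tables: Far1, Far2, Awat1, Awat2, Dgat2, Dgat2l6, Scd1, Scd3, Elovl3 and Soat1. Their levels were followed in 15 poly(A)+ RNA libraries from BALB/c mouse eyes taken with the eyelids, in a study of eyelid development in mice lacking the transcription factor Egr1.

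The newborn groups were 2 libraries labelled Egr1 knockout and 2 wild-type (WT) libraries. On postnatal day 3, each eye was a library of its own. There were 4 open eyes of mice labelled Egr1-/- (the right eye of mouse E24, the left eye of E29 and both eyes of E32), 2 closed eyes of the same label (the left eye of E24 and the right eye of E29) and both closed eyes of 1 Egr1+/- mouse, E28. The adult groups were 2 libraries labelled Egr1 knockout and 1 WT library. The knockout allele came from an Egr1-/- line on C57BL/6 that had been backcrossed to BALB/c for 5 or 4 generations, in an initial and a later backcross. No animal is named for the newborn and adult libraries, and p-values at these ages rest on a spread between libraries that may be technical. A whole eye with its lids mixes many tissues, and fewer cells of a type cannot be told apart from less RNA per cell.

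Between 18628415 and 35263624 reads fell on the kept transcripts of a library, so that 3 reads, the limit that a count of 0 allows, came to 0.1 to 0.143 CPM (counts per 1000000 reads of the scaled library total). Egr1 itself was higher in every library labelled knockout than in the WT libraries, at 184 to 256 against 33.0 CPM in adults and at 214 to 274 against 46.1 to 60.7 CPM in newborns. It reached 161 to 367 CPM in the open day 3 eyes and 157 to 221 CPM in the closed eyes labelled Egr1-/-, against 99.3 to 110 CPM in the heterozygous eyes. Reads counted over a whole transcript do not show whether its coding part is disrupted, so the groups are called labelled knockout throughout. Of 6 lens crystallin and membrane genes, the summed level was 342 CPM in replicate 1 of the newborn labelled knockout, against 7711 to 75691 CPM in the other 14 libraries. The libraries of the 4 open eyes and then those of the 4 closed eyes carry consecutive numbers, and the labels name no batch, so eyelid state and any order of preparation cannot be told apart.

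Meibomian glands are modified sebaceous glands of the eyelid that secrete meibum, the lipid layer of the tear film, by the breakdown of whole cells. Wax esters form when a fatty acyl-CoA is reduced to a fatty alcohol by a FAR enzyme and the alcohol is joined to another fatty acyl-CoA by a wax synthase of the AWAT and DGAT2 family. Stearoyl-CoA desaturases place a double bond in the chains, ELOVL enzymes lengthen them, and SOAT1 esterifies cholesterol. In mice, loss of Awat2 or of Far2 alters meibum and the ocular surface, while Far1 is expressed broadly and serves ether lipid synthesis in peroxisomes.

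Promoter sequences of the 2 reductase genes are shown because Far2 was the enzyme whose level differed most between open and closed eyes while its paralog Far1 differed little. Each runs from 250 bases before the RefSeq start site through the next 50 bases, 5′ to 3′ on the gene's strand, build GRCm38.p6. GC boxes (GGGCGG) and CCAAT boxes, searched on both strands, are in capitals.
Far2, chr6:148047166-148047465, plus strand: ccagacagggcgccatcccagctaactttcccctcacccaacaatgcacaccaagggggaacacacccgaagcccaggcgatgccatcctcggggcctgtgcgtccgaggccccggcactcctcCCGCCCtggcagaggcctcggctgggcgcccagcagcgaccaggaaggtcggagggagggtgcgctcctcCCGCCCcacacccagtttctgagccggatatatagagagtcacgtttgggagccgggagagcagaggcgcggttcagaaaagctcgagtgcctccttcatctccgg
Far1, chr7:113513584-113513883, plus strand: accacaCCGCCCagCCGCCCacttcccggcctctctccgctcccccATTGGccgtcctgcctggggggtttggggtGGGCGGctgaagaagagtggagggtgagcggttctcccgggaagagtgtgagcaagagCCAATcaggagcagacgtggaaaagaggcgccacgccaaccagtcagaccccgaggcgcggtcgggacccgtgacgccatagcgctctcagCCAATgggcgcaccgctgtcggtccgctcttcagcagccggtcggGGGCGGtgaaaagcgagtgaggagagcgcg
Both windows were rich in G and C, at 66.0% for Far2 and 67.7% for Far1, with 21 and 28 CpG dinucleotides. The Far2 window held 2 GC boxes and no CCAAT box, and the Far1 window held 4 GC boxes and 3 CCAAT boxes. Of 32851 promoter windows of the same length, 35.7% held a GC box and 37.4% a CCAAT box. The Egr-type letters GCGTGGGCG and GCGGGGGCG, present in 0.612% and 2.91% of all windows, were found in neither window, nor in those of Awat1, Awat2, Dgat2l6, Scd3 and Soat1. RefSeq promoters were matched for 7 of the 10 genes. A match is a run of letters, not a site shown to be bound, and the lack of a match says nothing of binding elsewhere.

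Compared per length, as the authors' deposited RPKM (read counts scaled to exon length and library size), the enzymes spanned a wide range. The stearoyl-CoA desaturase Scd1 had the highest median over the 15 libraries, at 12.0 RPKM, followed by Dgat2, the main triacylglycerol-forming acyltransferase of this family, at 8.95 RPKM. Far1 and Far2 had nearly the same median, 4.70 and 4.66 RPKM. Soat1, Scd3 and the very-long-chain elongase Elovl3 had medians of 2.59, 2.40 and 1.46 RPKM. The wax synthases were at the bottom of the order, with medians of 0.228 RPKM for Awat2, 0.0319 RPKM for Awat1 and 0.0216 RPKM for Dgat2l6. All 15 libraries gave Awat2 reads, but only 4 to 49 each. Awat1 had 103 reads in all 15 libraries together and none in 3 of them, and Dgat2l6 had 98 reads and none in 7. The genes that are most restricted to sebaceous cells were therefore at or near 0 in most libraries, and the levels of the broadly expressed enzymes cannot be assigned to Meibomian glands. Scd1, Scd3 and Elovl3 lie on chromosome 19, Awat1, Awat2 and Dgat2l6 on X, Far1 and Dgat2 on 7, Far2 on 6 and Soat1 on 1.

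**Figure D1:**
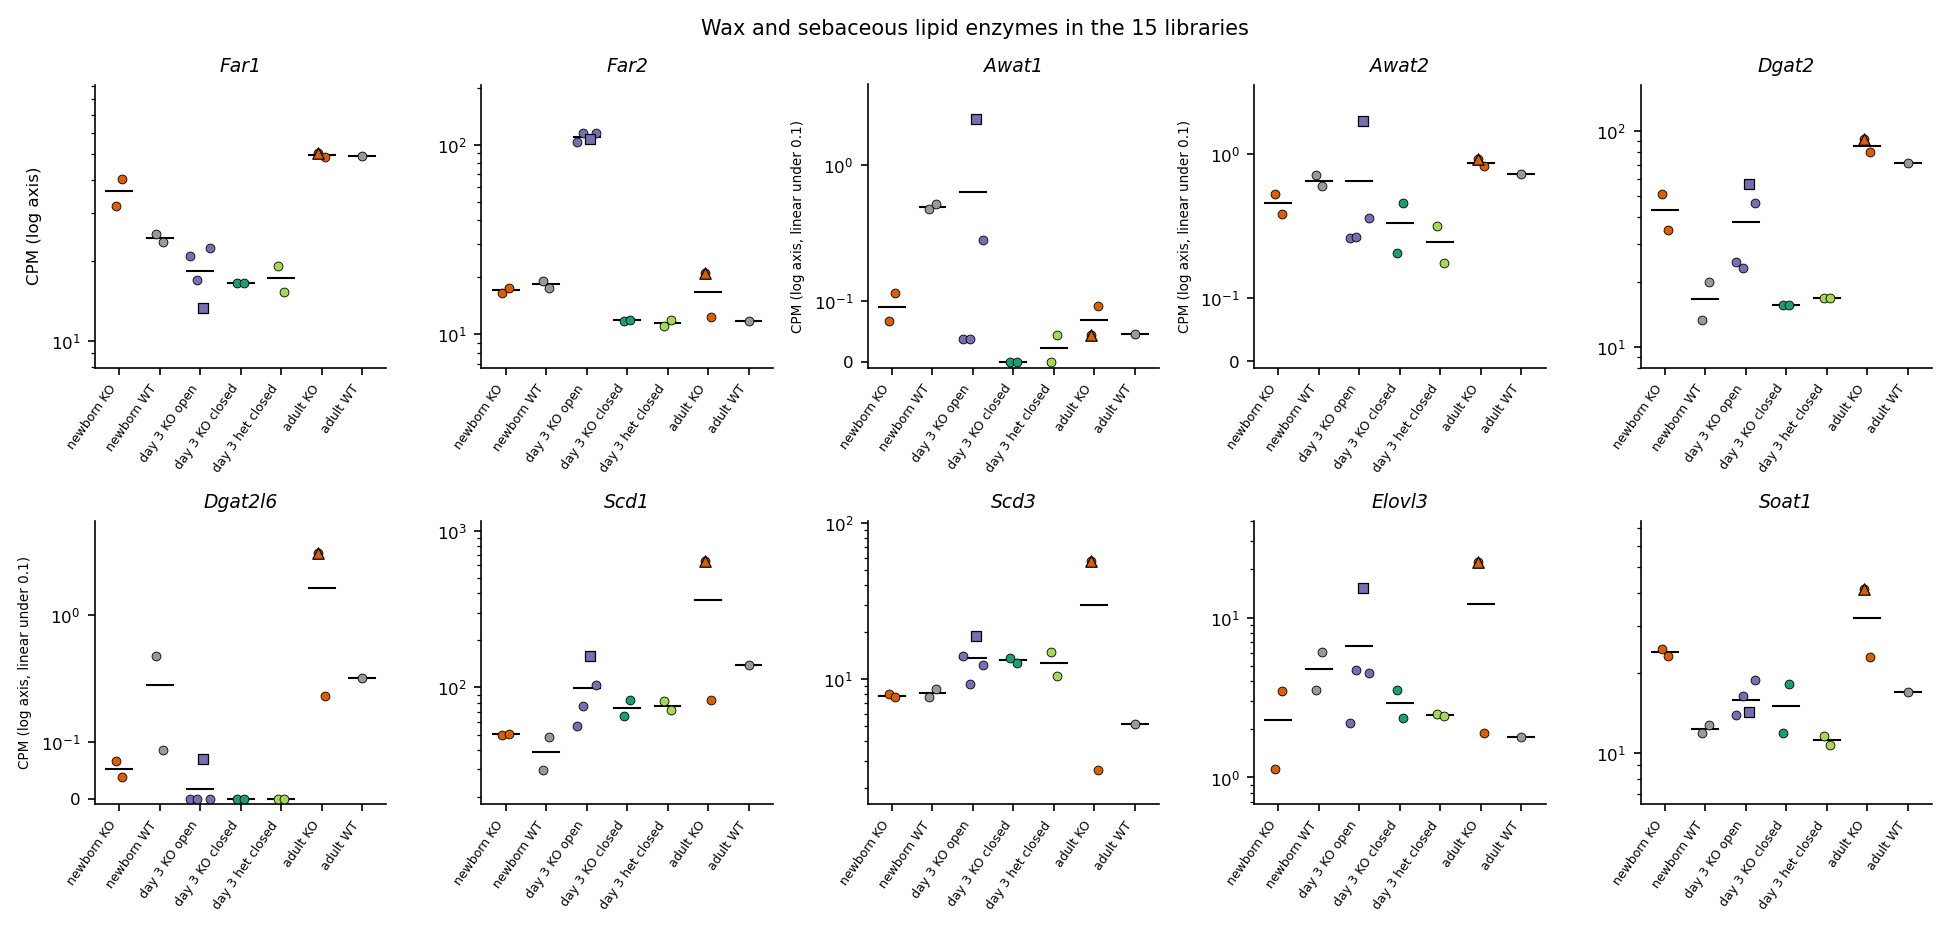
Level of each enzyme (y axis, CPM on a log axis, linear under 0.1 for Awat1, Awat2 and Dgat2l6) in the 15 libraries by group (x axis); points are libraries, short lines are group means, the square is the right eye of E32 and the triangle is replicate 1 of the adult labelled knockout. Far2 stands at 104 to 115 CPM in the 4 open eyes, and the triangle is far above the other adult libraries for Scd1, Scd3, Elovl3 and Dgat2l6.

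Far2, a reductase that makes fatty alcohols for wax, was the enzyme with the widest difference between eyelid states on day 3. Its level was 104 and 115 CPM in the open eyes of E24 and E29 and 107 and 115 CPM in the right and left eyes of E32. In the closed eyes it was 11.8 CPM in E24 and 11.9 CPM in E29, and 11.1 and 12.0 CPM in the right and left eyes of the heterozygous mouse. Every open eye was above every closed eye, whether the closed eye was labelled Egr1-/- or Egr1+/-. The means were 110 ± 5.72 CPM in open eyes and 11.7 ± 0.394 CPM in closed eyes (SD, n = 4 eyes each), a ratio of 9.44. Within mouse E24 the open eye was 8.77 times its closed fellow eye (2763 against 290 reads), and within E29 it was 9.67 times (3042 against 286 reads). This step was known when the genes were chosen, so it is given as a description with no p. The newborn and adult libraries, at 11.7 to 21.1 CPM, were all close to the closed eyes and far below the open ones. Of the 13385 genes with a mean of at least 1 RPKM in the open eyes, 68 had a lowest open eye at least 5 times the highest closed eye. Among genes whose highest closed eye reached 10 CPM, 8 of 11105 had such a gap, a threshold chosen after the values were seen. These were Far2, the keratin genes Krt6a, Krt6b, Krt13, Krt14, Krt16 and Krt17, and Gm5414.

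The gene next to Far2 showed the same step. Ergic2, which encodes a membrane protein of the compartment between endoplasmic reticulum and Golgi, runs on the opposite strand and meets Far2 at its 3′ end. In the GENCODE M21 annotation of GRCm38 the counted transcripts of the 2 genes share 837 exonic bases, which are 24.7% of the Far2 transcript (NM_178797) and 20.1% of the Ergic2 transcript (NM_026168). The libraries do not keep strand, so reads in these bases cannot be told apart. Ergic2 was at 118, 127, 112 and 124 CPM in the open eyes of E24, of E29 and in the right and left eyes of E32, against 22.3 and 23.6 CPM in the closed eyes of E24 and E29 and 23.7 and 24.6 CPM in the heterozygous eyes. The mean of the open eyes exceeded that of the closed eyes by 98.7 CPM for Far2 and by 96.6 CPM for Ergic2. A shorter Ergic2 transcript (NM_026355) showed no such step, with 6.56 to 9.06 CPM in the open eyes and 7.88 to 11.3 CPM in the closed eyes. Whether the added reads came from Far2, from the long form of Ergic2 or from another RNA over the shared bases was not tested, since the tables give 1 count per transcript.

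**Figure D2:**
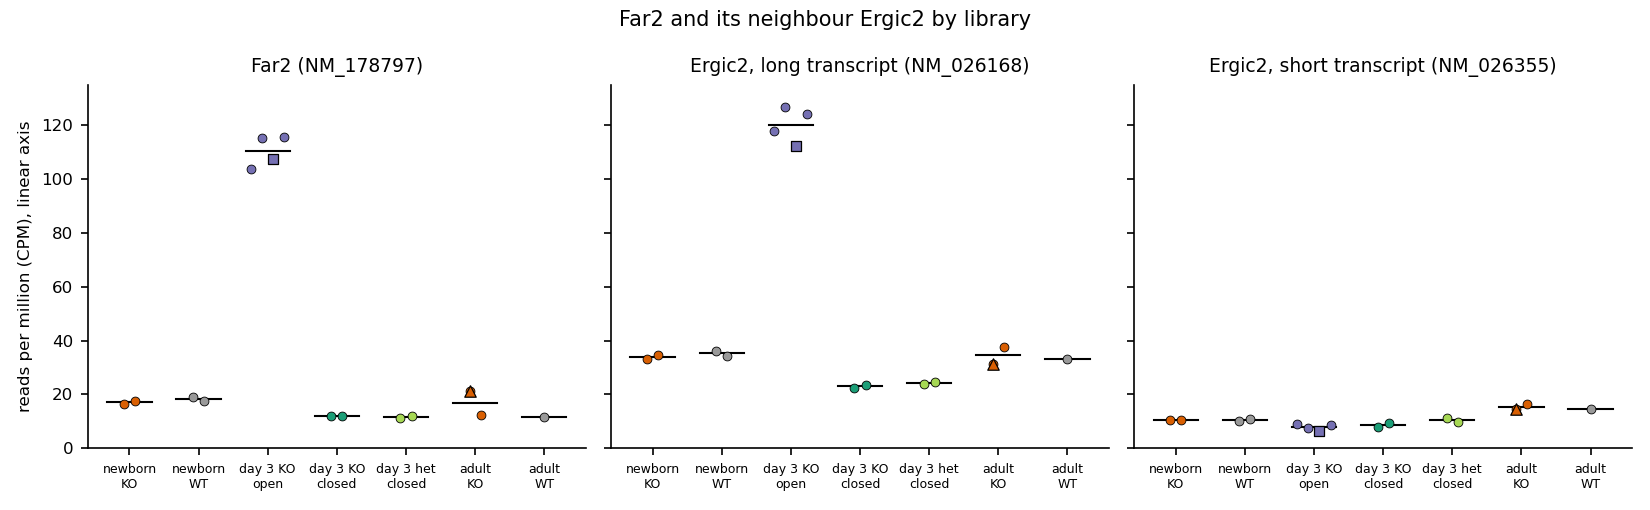
Level (y axis, CPM, linear axis from 0) of the Far2 transcript and of the long and short Ergic2 transcripts in the 15 libraries by group (x axis); points are libraries, short lines are group means, the square is the right eye of E32 and the triangle is replicate 1 of the adult labelled knockout. Far2 and the long Ergic2 transcript step up together in the 4 open eyes, to at least 104 and 112 CPM, and the short Ergic2 transcript does not.

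Genes farther along chromosome 6 did not share the step. Beyond Ergic2, Tmtc1 was at 6.80 to 20.4 CPM in open and 7.71 to 18.5 CPM in closed eyes, and Ipo8 was at 38.4 to 49.6 CPM in open and 45.1 to 55.4 CPM in closed eyes. On the other side, Ccdc91 was at 24.2 to 30.5 CPM in open and 24.2 to 37.3 CPM in closed eyes. The ranges of open and closed eyes overlapped for each of these 3 genes, and for Pthlh and Caprin2 as well. Only Far2 and Ergic2, of the 7 genes in this stretch that the tables hold, had open eyes apart from closed ones.

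**Figure D3:**
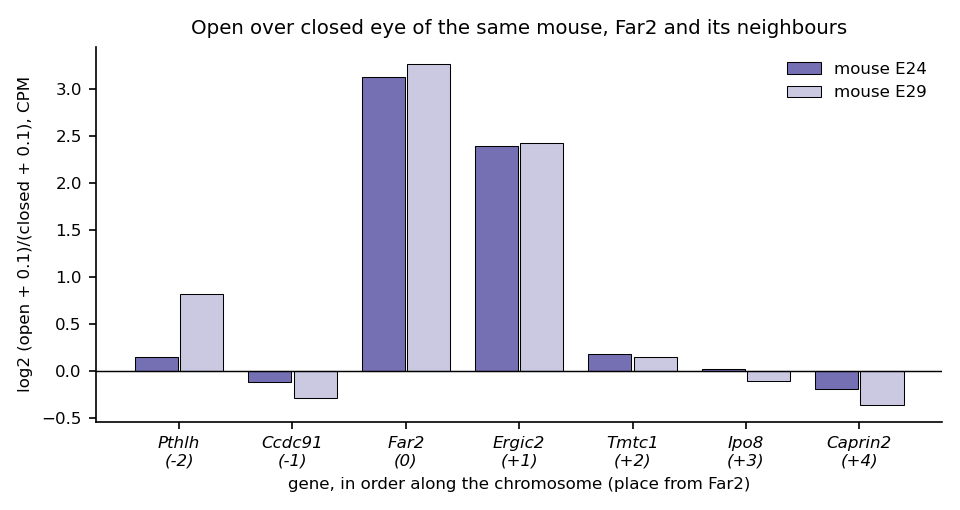
Log2 ratio of the open over the closed eye of the same mouse (y axis, from CPM with 0.1 added to each) for Far2 and the 6 neighbouring genes in the tables, in their order along chromosome 6 (x axis, with the place from Far2); dark bars are mouse E24 and light bars mouse E29. Far2 reaches 3.12 and 3.26 and Ergic2 2.39 and 2.42, and the other 5 genes lie between -0.36 and 0.81.

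None of the other enzymes passed the test between open and closed eyes. With the mouse as a block, edgeR's quasi-likelihood test called 0 of the 7 that could be tested without Far2 at an adjusted p of 0.05 (1 had an unadjusted p under 0.05, and DESeq2 called 0), against 0.514% of all 15754 genes. Their median log2 change was 0.06, beside 0.02 over all genes. Dgat2 came closest: its level was 24.8, 23.3, 56.9 and 46.4 CPM in the open eyes of E24, of E29 and in the right and left eyes of E32, against 15.7 and 15.6 CPM in the closed eyes of E24 and E29 and 16.8 and 16.9 CPM in those of E28. All 4 open eyes were above all 4 closed eyes, yet the fitted change of 0.64 ± 0.19 (log2, SE) had an adjusted p of 0.389. How many of all genes were separated in this way was not counted. Basal epidermis markers, 7 of 7 detected in every library, summed to 3961 to 11413 CPM in open and 1167 to 2450 CPM in closed eyes, and their part in the Dgat2 values was not tested.

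Far1, the broadly expressed paralog of Far2, was at 13.3 to 22.4 CPM in open eyes and 15.2 to 19.1 CPM in closed eyes, with a fitted log2 change of 0.21 ± 0.29 and an adjusted p of 0.999 (edgeR). The open range enclosed the closed one. An interval from the SE by a normal approximation ran from -0.37 to 0.78. With so few eyes it is narrower than a true 95% interval. For Scd1, the interval was -0.57 to 0.29, with 57.0 to 159 CPM in open and 66.1 to 82.6 CPM in closed eyes. Scd3, a desaturase of sebaceous cells and skin, was at 9.30 to 18.9 CPM in open and 10.5 to 14.9 CPM in closed eyes. Soat1 was at 13.9 to 18.8 CPM in open and 10.7 to 18.2 CPM in closed eyes. Both overlapped between the states. Elovl3 took opposite signs in the 2 mice with an eye of each kind, at 2.18 CPM in the open against 3.51 CPM in the closed eye of E24, and at 4.69 CPM in the open against 2.37 CPM in the closed eye of E29. Awat1 and Dgat2l6 did not pass the filter on low counts. The closed eyes of E24 and E29 held 0 reads of Awat1, which allows up to 0.122 and 0.125 CPM.

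The right eye of E32 stood apart from the other 3 open eyes, including its own fellow eye, for Awat1 and Awat2 and less so for Elovl3. Awat1, a wax synthase of sebaceous cells, had 62 reads there, against 7 in the left eye of E32 and 1 in each open eye of E24 and E29. Awat2, the wax synthase of meibum, had 49 reads, against 9 in the left eye of E32 and 7 in each open eye of E24 and E29. Elovl3 was at 15.3 CPM, against 4.51, 4.69 and 2.18 CPM in the left eye of E32 and the open eyes of E29 and E24. Scd1 was at 57.0 and 76.7 CPM and Scd3 at 14.1 and 9.30 CPM in the open eyes of E24 and E29. Scd1 (159 against 104 CPM) and Scd3 (18.9 against 12.4 CPM) were also higher in the right than in the left eye of E32. Far2 was not, at 107 CPM in the right and 115 CPM in the left eye, nor was Far1, at 13.3 and 22.4 CPM. Hair follicle markers, 10 of 10 detected, summed to 3130 CPM in the right and 162 CPM in the left eye of E32, against 28.3 to 31.4 CPM in the other open eyes. Cornified epidermis markers, 7 of 7 detected, summed to 5172 CPM in the right and 1881 CPM in the left eye, against 104 to 111 CPM in the other open eyes. The part of these tissues in the sebaceous values was not tested.

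Between day 3 mice labelled knockout and the heterozygous mouse, with the reads of both eyes of a mouse summed, none of the 9 enzymes tested passed (0% of 16453 genes did, 273 genes at an unadjusted p under 0.05, and DESeq2 called 94, among them 1 of the enzymes, Far2, whose summed reads come mostly from open eyes). In the closed eyes alone, which share their eyelid state, Far2 was at 11.8 and 11.9 CPM in labelled-knockout eyes and at 11.1 and 12.0 CPM in heterozygous eyes. Dgat2 was at 15.7 and 15.6 CPM in the labelled-knockout eyes and at 16.8 and 16.9 CPM in the heterozygous eyes. The closed eyes of the 2 genotypes differed little for both genes. With 1 heterozygous mouse, genotype and mouse cannot be told apart.

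In newborns, the libraries labelled knockout had higher Dgat2 and Soat1 than WT. Dgat2 was at 51.1 and 34.8 CPM in labelled-knockout and 13.3 and 19.9 CPM in WT libraries, and it rose by 1.36 ± 0.27 on the log2 scale (SE, adjusted p = 0.0124, edgeR's quasi-likelihood test with Benjamini-Hochberg adjustment). Soat1, the enzyme that esterifies cholesterol, was at 24.6 and 23.1 CPM in labelled-knockout and 11.9 and 12.8 CPM in WT libraries, and it rose by 0.94 ± 0.27 (SE, adjusted p = 0.0453). The groups did not overlap for either gene, but the share of all genes without overlap was not counted. These 2 of 10 enzymes stand beside 24% of all 17592 genes tested, a share so close that the count is no result about the enzymes. The median change of the 10 was -0.09 (log2), beside -0.07 over all genes. Both calls depended on single libraries. Each was lost with newborn WT replicate 1, newborn WT replicate 2 or labelled-knockout replicate 1 left out. Without labelled-knockout replicate 2, fewer enzymes were called. These fits leave 1 library in a group, and fewer of all genes were called in them too. Over all alternatives run, the log2 change was 1.05 to 1.70 for Dgat2 and 0.88 to 1.01 for Soat1. Basal epidermis markers summed to 8330 to 9390 CPM in labelled-knockout and 1023 to 1528 CPM in WT libraries, and macrophage markers, 7 of 7 detected, to 258 to 323 CPM in labelled-knockout and 83.4 to 86.3 CPM in WT libraries. Their part in the Dgat2 and Soat1 values was not tested.

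Far1 was at 32.1 and 40.4 CPM in newborn labelled-knockout and 25.1 and 23.6 CPM in WT libraries, a log2 change of 0.56 ± 0.17 whose adjusted p of 0.0541 missed the threshold (edgeR). Far2 overlapped between the genotypes, with 16.5 and 17.6 CPM in labelled-knockout and 19.2 and 17.5 CPM in WT libraries (log2 change -0.11 ± 0.25, adjusted p = 0.773, edgeR). Awat1 had 2 and 3 reads in labelled-knockout and 10 and 12 reads in WT libraries, and Dgat2l6 2 and 1 reads in labelled-knockout and 10 and 2 reads in WT libraries. At such counts the tests could show only wide differences, and the adjusted p-values were 0.121 and 0.330 (edgeR). Scd1 was at 49.5 and 50.6 CPM in labelled-knockout and 30.0 and 48.1 CPM in WT libraries, and Scd3 at 8.0 and 7.68 CPM in labelled-knockout and 7.75 and 8.68 CPM in WT libraries. Neither desaturase passed the test.

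Adults gave no call for any of the 10 enzymes between labelled knockout and WT (0% of 17592 genes passed with edgeR, 506 genes had an unadjusted p under 0.05, and DESeq2 called 102). For Scd1, Scd3, Elovl3 and Dgat2l6, the 2 labelled-knockout libraries differed far more from each other than the second of them did from the lone WT library. Scd1 was at 640 CPM in replicate 1 and 83.3 CPM in replicate 2 of the labelled knockout, against 139 CPM in the WT library. Scd3 was at 57.4 CPM in replicate 1 and 2.64 CPM in replicate 2, against 5.18 CPM in WT. Elovl3 was at 22.3 CPM in replicate 1 and 1.90 CPM in replicate 2, against 1.79 CPM in WT. In each case replicate 1 was the highest of the 15 libraries and replicate 2 was near or below WT. Dgat2l6 had 69 reads in replicate 1 and 5 in replicate 2, against 7 in WT. Awat1 and Awat2 did not follow: Awat1 had 1 and 2 reads in the labelled-knockout libraries, against 1 in WT, and Awat2 had 21 and 18 reads in the labelled-knockout libraries, against 16 in WT. Far1 was level across the 3 libraries, at 50.5 and 48.9 CPM in labelled knockout and 49.0 CPM in WT. Soat1 was at 41.4 and 22.9 CPM in the labelled-knockout libraries, both above the 16.9 CPM in WT. Its fitted difference was 0.95 ± 0.34 (log2, SE) and became 0.47 without replicate 1. It was the 1 enzyme with an unadjusted p under 0.05 (0.0273, edgeR) and did not pass after adjustment. The fitted difference of Scd3 was 2.55 ± 1.44 (log2, SE) and became -0.94 without replicate 1, with an adjusted p of 1 and 0.748 (edgeR). That of Scd1 was 1.40 ± 1.00 and became -0.70 without replicate 1, with an adjusted p of 1 in both fits.

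Replicate 1 of the adult labelled knockout also stood apart in its tissue markers. Mc5r, the melanocortin receptor of sebaceous glands, was at 3.48 CPM there, against 0.139 CPM in replicate 2 and 0.413 CPM in WT. Pparg, a regulator of sebocyte and adipocyte differentiation, was at 5.41 CPM, against 0.971 CPM in replicate 2 and 2.29 CPM in WT. Krt12, the keratin of corneal epithelium, was at 2.64 CPM, against 3860 CPM in replicate 2 and 6411 CPM in WT. The 4 cornea markers summed to 736 CPM in replicate 1, against 7238 CPM in replicate 2 and 11246 CPM in WT. The 6 lens markers summed to 7711 CPM, against 47405 CPM in replicate 2 and 35331 CPM in WT. The 7 lacrimal and Harderian gland markers summed to 495 CPM, against 1388 CPM in replicate 2 and 1327 CPM in WT, and macrophage markers to 646 CPM, against 156 CPM in replicate 2 and 125 CPM in WT. The 10 adipocyte markers summed to 391 CPM, against 211 CPM in replicate 2 and 402 CPM in WT. The part of this tissue makeup in the Scd1, Scd3, Elovl3 and Dgat2l6 values was not tested. The sebocyte list of 9 genes holds 5 of the enzymes themselves, so its sum is not used here as evidence. Mc5r and Pparg are only a part of that list. Awat1 and Awat2, also on it, did not follow, and its genes Cidea and Krt79 are not given here.

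**Figure D4:**
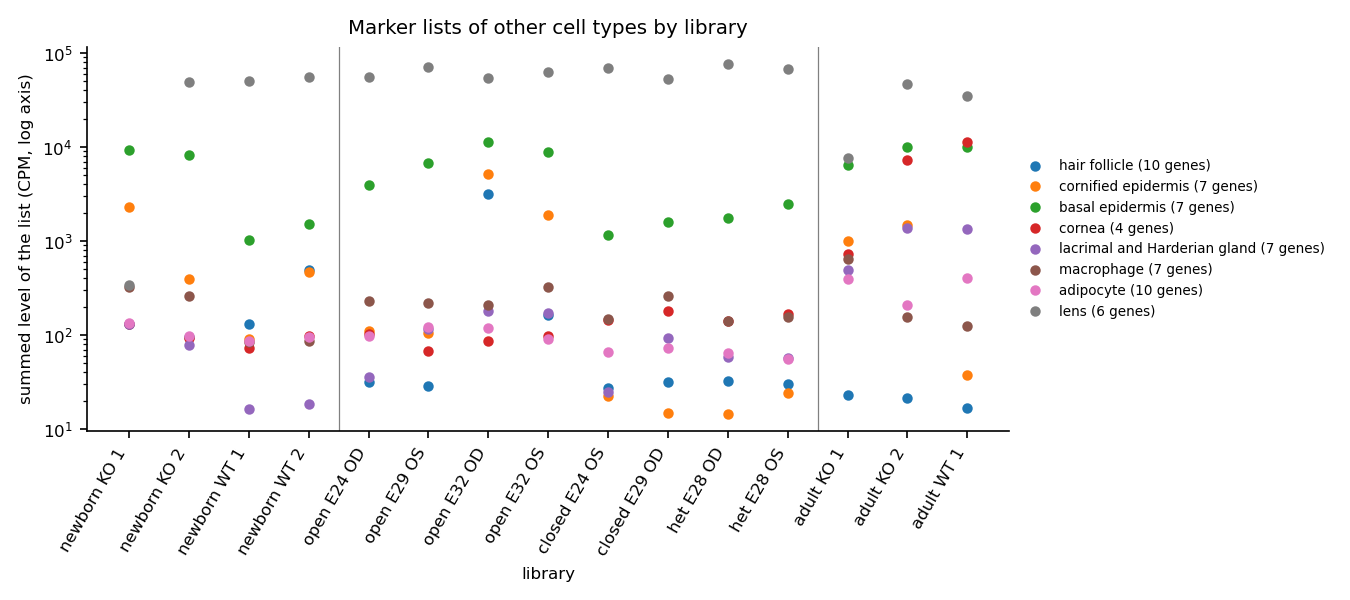
Summed level (y axis, CPM, log axis) of 8 marker lists of other cell types in each of the 15 libraries (x axis); each point is 1 library's sum over the list. Replicate 1 of the adult labelled knockout has a low cornea sum (736 CPM), the right eye of E32 has the highest hair follicle and cornified epidermis sums (3130 and 5172 CPM), and replicate 1 of the newborn labelled knockout has a lens sum of 342 CPM.

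The genotype difference itself was compared between the ages. None of the 10 enzymes differed in this respect at an adjusted p of 0.05 (1 had an unadjusted p under 0.05, and DESeq2 called 0), against 2.8% of 17592 genes. For Dgat2 the genotype difference was lower by 1.07 ± 0.41 (log2, SE) in adults than in newborns, with an adjusted p of 0.200 (edgeR). The adult values of Dgat2, 91.6 and 80.0 CPM in labelled knockout and 71.4 CPM in WT, lay close together, while the newborn groups lay apart.

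Adult eyes had more Far1, Dgat2 and Scd1 than newborn eyes. Far1 rose by 0.72 ± 0.13 (log2, SE, adjusted p = 0.00397, edgeR): it was at 48.9 to 50.5 CPM in the 3 adult libraries and 23.6 to 40.4 CPM in the 4 newborn libraries. Dgat2 rose by 1.53 ± 0.20 (adjusted p = 0.000881), with 71.4 to 91.6 CPM in adult and 13.3 to 51.1 CPM in newborn libraries. Scd1 rose by 2.32 ± 0.60 (adjusted p = 0.0160), with 83.3 to 640 CPM in adult and 30.0 to 50.6 CPM in newborn libraries. The adult and newborn ranges did not overlap for any of these 3 genes, but the share of all genes without overlap was not counted. The 3 of 10 enzymes called stand beside 49.2% of all genes, so the count is below the background. The calls for Far1 and Dgat2 held in all 12 alternatives run. That for Scd1 was lost without newborn WT replicate 1 (2.21, adjusted p = 0.0859, edgeR), without newborn WT replicate 2 (2.55, adjusted p = 0.0633) and with a replicate block (1.97, adjusted p = 0.0813). Without replicate 1 of the adult labelled knockout, Scd1 still differed by 1.27, and Scd3 took the opposite sign, with a log2 change of -1.13 (adjusted p = 0.00144) against 0.62 ± 0.82 with it. Markers of other tissues moved with age too: adipocyte markers summed to 211 to 402 CPM in adult and 85.6 to 134 CPM in newborn libraries. Cornea markers summed to 736 to 11246 CPM in adult and 72.5 to 130 CPM in newborn libraries, and lacrimal and Harderian gland markers to 495 to 1388 CPM in adult and 16.3 to 130 CPM in newborn libraries. Their part in the age differences of the enzymes was not tested. Far2 overlapped between the ages, at 11.7 to 21.1 CPM in adults and 16.5 to 19.2 CPM in newborns.

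**Figure D5:**
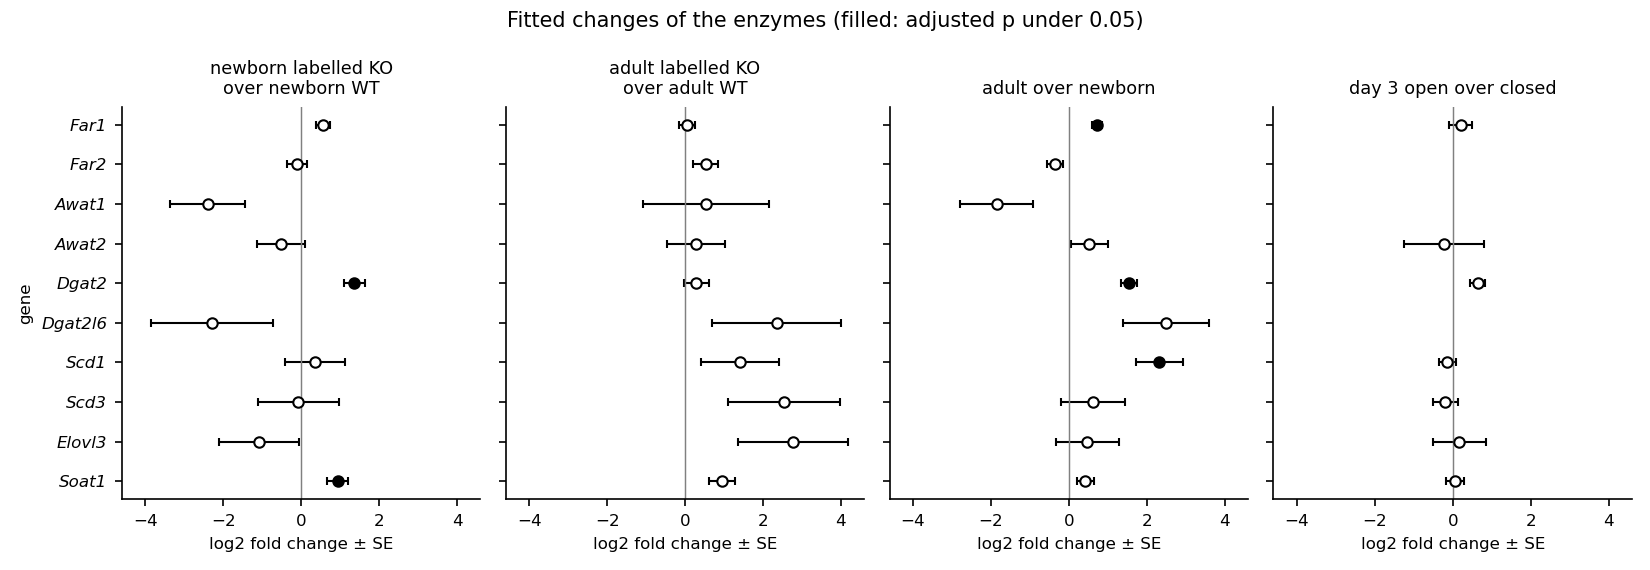
Fitted log2 fold change (x axis) of each enzyme (y axis) in 4 comparisons; points are edgeR estimates, bars are 1 SE, and filled points have an adjusted p under 0.05. Dgat2 and Soat1 are filled for the newborn genotypes and Far1, Dgat2 and Scd1 for age; Far2 is left out of the eyelid comparison, and Awat1 and Dgat2l6 did not pass its filter.

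Day 3 lay between these ages, and 2 comparisons of mice or libraries labelled knockout span it. Day 3 mice against newborn libraries gave a call for 1 of the 9 enzymes other than Far2, beside 17.8% of 17980 genes. These mice pool open and closed eyes, and the eyelid state of the newborn eyes is not in the labels. Dgat2 was not called with all eyes, at -0.49 ± 0.42 (log2, SE), and was at -1.61 with closed eyes only. It passed in 2 of 19 alternatives. Far1 fell by 1.03 ± 0.15 on the log2 scale (SE, adjusted p = 0.00946, edgeR), with 13.3 to 22.4 CPM over the 6 day 3 eyes and 32.1 and 40.4 CPM in the newborn libraries. Without replicate 1 of the newborn labelled knockout its adjusted p was 0.0723 (log2 change -1.19). Far2 is left out of these counts, since its step in open eyes was known beforehand: its log2 change was 2.21 with all eyes and -0.67 with closed eyes only (adjusted p = 0.0608), and no p is given for the fit with all eyes. Adult libraries against day 3 mice gave a call for 5 of the 9 enzymes other than Far2, beside 50.1% of genes. Far1 rose by 1.49 ± 0.15 (adjusted p = 0.000185), Dgat2 by 1.49 ± 0.42 (adjusted p = 0.0182), and Soat1 by 1.05 ± 0.25 (adjusted p = 0.00886). Scd1 and Dgat2l6 were called too, at 1.98 ± 0.69 and 6.64 ± 1.5. Of these 5 calls only that for Far1 held without replicate 1 of the adult labelled knockout (1.47, adjusted p = 0.00203, edgeR). Without that library Dgat2 was at 1.39 (adjusted p = 0.0752), Soat1 at 0.56 (adjusted p = 0.0878), Dgat2l6 at 3.85 (adjusted p = 0.107) and Scd1 at -0.13 (adjusted p = 0.832), and Scd3 then passed at -2.36. The Dgat2 call was also lost without replicate 2 of the adult labelled knockout (adjusted p = 0.0521) and without E29 (adjusted p = 0.0523). The Scd1 call was also lost without any 1 of the 4 newborn libraries, without E24 and without E29 (adjusted p of 0.0538 to 0.103). The fitted value for Dgat2l6 depends on the prior count, since the day 3 mice had 2 reads in 1 of 6 eyes. Far2 was lower in the adult libraries by a log2 change of -2.24 with all eyes and higher by 0.63 with closed eyes only (adjusted p = 0.0592).

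Of other lipid genes, 4 lists were followed: fatty acid synthesis and elongation (20 genes), acyltransfer, ether lipid and lipid droplet genes (22), cholesterol synthesis and uptake (21) and regulators of sebaceous and Meibomian glands (19). Between open and closed eyes none of these genes passed the test, and the list medians were -0.08, 0.24, -0.01 and 0.14 (log2), beside 0.02 over all genes. The closest was Agpat2, an acyltransferase of triacylglycerol synthesis, with a log2 change of 1.14 ± 0.27 and an adjusted p of 0.211 (edgeR). Between adult labelled knockout and WT none passed either.

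In newborn labelled-knockout against WT libraries, 4 of 20 fatty acid genes rose and 3 fell, 4 of 22 acyltransfer genes rose and none fell, 2 of 21 cholesterol genes rose and none fell, and 5 of 19 regulators rose and 1 fell. Of all 17592 genes, 2576 rose and 1650 fell, or 24% in all, and no difference of the lists from this background was tested. The list medians were -0.05, 0.45, -0.12 and 0.63 (log2), beside -0.07 over all genes. Gata6, a transcription factor of the sebaceous duct, was at 39.3 and 40.4 CPM in labelled-knockout and 3.95 and 3.29 CPM in WT libraries, and rose by 3.45 ± 0.63 (adjusted p = 0.00922, edgeR). Prdm1, which encodes the repressor Blimp1, was at 23.4 and 42.0 CPM in labelled-knockout and 84.3 and 105 CPM in WT libraries and fell by 1.54 on the log2 scale (adjusted p = 0.0185). Elovl4, an elongase of very long chains in skin, Meibomian gland and photoreceptors, was at 21.9 and 23.3 CPM in labelled-knockout and 63.8 and 77.4 CPM in WT libraries and fell by 1.65 (adjusted p = 0.00359). Rod markers, 6 of 6 detected, summed to 19.0 and 70.0 CPM in the labelled-knockout and 289.2 and 333 CPM in the WT libraries. Their part in the Elovl4 and Prdm1 values was not tested. Elovl1 rose by 1.31 ± 0.22 (adjusted p = 0.00717) and the acyl-CoA synthetase gene Acsl5 by 1.43 ± 0.16 (adjusted p = 0.00330). Acsl3, on the same list, fell, with a log2 change of -1.44 (adjusted p = 0.00901, edgeR). The lipid droplet gene Plin3 rose by 1.17 ± 0.22 (adjusted p = 0.0102). Basal epidermis and macrophage markers were also higher in the labelled-knockout libraries. Their part in the Gata6, Elovl1, Acsl5 and Plin3 values was not tested.

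In adult against newborn libraries, 8 of 20 fatty acid genes rose and 1 fell, 10 of 22 acyltransfer genes rose and 1 fell, 9 of 21 cholesterol genes rose and 2 fell, and 5 of 19 regulators rose and 5 fell. Of all genes, 4444 rose and 4218 fell, or 49.2% in all, and the lists' shares lie near that background. The medians were 0.49, 0.62, 0.46 and 0.08 (log2), beside -0.04 over all genes. Elovl4 rose by 2.51 ± 0.16 (adjusted p = 4.28e-05, edgeR). The rod markers summed to 21284 to 42815 CPM in adult and 19.0 to 333 CPM in newborn libraries, and their part in the Elovl4 value was not tested. Me1, a source of NADPH for lipid synthesis, rose by 1.41 ± 0.13 (adjusted p = 0.000191). Idi1, an isomerase of the isoprenoid pathway, fell by 4.77 on the log2 scale (adjusted p = 2.19e-05): it was at 0.694 to 0.826 CPM in adult and 15.2 to 25.1 CPM in newborn libraries. Scd4, the 1 fatty acid gene that fell, had a log2 change of -2.78 (adjusted p = 0.000527, edgeR). Of the 4 regulators with the smallest p, Thrsp, a lipogenic regulator, rose by 3.15 ± 0.37 (adjusted p = 0.000528). The other 3, Eda, Gata6 and Sox9, fell, with log2 changes of -1.37, -3.59 and -0.98. Mogat1, a monoacylglycerol acyltransferase, was at 5.13 to 18.3 CPM in adult and 0.966 to 1.19 CPM in newborn libraries and rose by 2.79 ± 0.44 (adjusted p = 0.00184).

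The genes whose log2 level (CPM + 1) followed an enzyme most closely over the 15 libraries were sought among 13802 genes with a mean of at least 1 RPKM, as a description. For Far2 they were Ergic2 (r = 0.979), Eif2c4 (0.927), Krt42 (0.903), Qrsl1 (0.889) and Slc25a34 (0.874). Eif2c4, an Argonaute gene, was at 76.1 CPM or more in open and 27.0 CPM or less in closed eyes. All 5 had their lowest open eye above their highest closed eye. The likeness to Far2 rests mostly on its step in open eyes, so this is no separate result. Ergic2 also shares exonic bases with Far2, and reads there cannot be told apart. For Awat2 the leading genes were Dnase1l2 (0.912), Zcchc10 (0.884), Aloxe3 (0.873), Psors1c2 (0.868) and Vsig8 (0.867), each highest in the right eye of E32. For Elovl3 they were BC039632 (0.835), Cxcl14 (0.746), Lcn11 (0.745), Mboat2 (0.745) and Abpd (0.737), each highest in that eye or in replicate 1 of the adult labelled knockout. 1 library weighs heavily in the likenesses for Awat2 and Elovl3.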

How the data were processed

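Poly(A)+ RNA of eyes with their lids was sequenced without keeping strand, after 18 cycles of PCR. Per the submitters' processing notes, the tools were TopHat2 2.0.11 with Bowtie 0.12.9, CASAVA 1.8 and SAMtools, and the genome build was mm8; the counting tool and annotation release are not given in the sources used here. The authors deposited raw read counts per RefSeq transcript, and RPKM values scaled to exon length and library size. For each of 20418 symbols the most highly counted transcript was kept; 2673 symbols had several. The counts of all genes passing filterByExpr were TMM-scaled and tested by edgeR's quasi-likelihood method (version 4.0.16, R 4.3.3), with Benjamini-Hochberg adjustment and a threshold of 0.05. CPM are counts scaled to a TMM-adjusted total of 1000000. SE is the log2 fold change over the square root of F.

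The 7 newborn and adult libraries shared a fit with a mean per group, in which the single adult WT library borrowed its spread from the other groups. For the 8 day 3 eyes, the mouse was a blocking term; comparisons between mice used reads summed per mouse, and the single heterozygous mouse borrowed its spread likewise. The labels do not say whether replicate numbers pair the newborn libraries. Across 15098 genes, the differences of replicates 1 and 2 correlated at 0.0314 between genotypes, which does not settle it.

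All 10 enzymes are named. Of each lipid gene list, the genes with the smallest p among those that passed were eligible to be named, up to 4 per list and comparison. The enzymes and lists were chosen with earlier results of these data known. Alternatives were size factors, no filter, a minimum of 5 RPKM, DESeq2 1.42.0, summed transcripts, a replicate block and leaving out libraries; leaving out the right eye of E32 was added after the data had been seen. Scd3 shares 4.77% of its 50-base stretches with Scd1 and 3.89% with Scd2, so their reads may be mixed in part. Limits from counts of 0 cover counting error only. Intervals of fold changes rest on the SE, which holds the fitted spread between libraries. They use a normal approximation and are too narrow for so few libraries. Promoter sequences are RefSeq's, build GRCm38.p6. Exon overlaps are from GENCODE M21, a later build than the files', from which no values were taken.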

Additional observations from a re-analysis of the deposited data

Results flagged for a closer look

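The right eye of E32 lay apart from the other 3 open eyes for 3 of the enzymes, by the ratio of its gap to the whole range of the 4 eyes (Dixon's test at the 95% level). Awat1 was at 2.16 CPM there, against 0.0376 to 0.280 CPM in the others. Awat2 was at 1.71 CPM, against 0.263 to 0.360 CPM. Dgat2l6 was at 0.0698 CPM, which is 2 reads against 0 reads in each of the other 3 eyes and below the limit that a count of 0 allows. Chance flags about 1 in 20 groups of normally distributed values, a rate that need not hold at counts this low. Where 3 eyes hold 0 reads, as for Dgat2l6, any read in the remaining eye is flagged. The same eye had the highest sums of hair follicle and cornified epidermis markers, and their part in these values was not tested.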

How the results depend on the processing

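Of 111 recounts of the enzymes called, 94 stayed within 1.5 times the reported count. Many of these were counts of 0 that stayed at 0. They were 11 of 12 recounts between adult genotypes, 11 of 12 for the genotype difference and 8 of 10 against the heterozygous mouse. Between open and closed eyes, with Far2 left out, they were 13 of 13. Few or no genes passed in these comparisons, so such recounts are no support. The newborn count stayed in 7 of 14. Of 226 alternatives for the 14 enzyme results that passed, 195 still passed in the same direction. Among these 14 are the Far2 results between open and closed eyes and of day 3 mice against newborn and adult libraries. The step behind them was known beforehand, so their share is no support for it. The newborn count of 2 was 1 with DESeq2's size factors and 3 with DESeq2's Wald test. With a minimum of 5 RPKM it was 1, but only 3 of the 10 enzymes were tested, without Soat1. It also moved with a library left out, where a newborn group can be left with 1 library. The count between adult genotypes was 0 to 3 with a library left out, that of the genotype difference between ages 0 to 3, that for age 2 to 6, that for day 3 against newborn 0 to 4 and that for adult against day 3 3 to 6. For labelled-knockout against heterozygous mice it was 1 with DESeq2, and 0 to 1 with a mouse left out. The number of genes called between newborn genotypes, 4226, was 0 without WT replicate 1, 728 without WT replicate 2 and 2089 without labelled-knockout replicate 1. Of all genes, 81 were called between open and closed eyes, 0 without E24, 1 without E29, 368 with DESeq2 and 400 with no mouse block.

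The results that passed in either fit and changed sign were Scd3 without replicate 1 of the adult labelled knockout (-1.13 for age and -2.36 for adult against day 3, adjusted p = 0.00250, edgeR), Scd1 without that library (-0.13 for adult against day 3), and Far2 with closed eyes only (-0.67 for day 3 against newborn and 0.63 for adult against day 3). Other sign changes were of values that passed in neither fit, such as Elovl3 without the same adult library (-0.86 for age and -1.54 for adult against day 3). Without replicate 2 instead, Scd3 was at 1.12 for age and 2.07 for adult against day 3, and Scd1 at 2.81 for adult against day 3; the cause was not tested beyond the libraries named. The labels name no pairs of libraries. With a replicate block, 3 enzymes and 5271 genes were called between newborn genotypes. With that block, 0 enzymes were called between adult genotypes, 0 for the genotype difference and 2 for age. The adult genotype, genotype-difference and age comparisons without the adult WT library, and the comparison with the heterozygous mouse without E28, could not be fitted. The counts of enzymes for day 3 mice here include Far2, and those between open and closed eyes do not. Depth limits Awat1, Awat2 and Dgat2l6, whose counts of 0 to 69 reads a library can show only wide differences, and not the other enzymes, whose spread is between libraries.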
